A study of Homo sapiens with 10 samples.

Results

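The genes described here are 8 matricellular and matrix glycoprotein genes, THBS1, THBS2, THBS3, THBS4, SPARC, SMOC1, TNC and FN1, out of 58051 gene rows in the deposited tables. They were chosen by measured values, around higher THBS1 and SPARC and lower THBS2 RNA in RBM4 knockout HAP1 cells, so their differences between knockout and wild type are given as a description and not as a test. HAP1 cells are human, nearly haploid and descend from KBM-7, a line of chronic myeloid leukaemia origin, and RBM4 encodes an RNA-binding protein of splicing and translation. Paired-end RNA-seq covered wild type cells (n = 3), RBM4 knockout clone 1 (n = 3) and RBM4 knockout clone 2 (n = 2), and a further wild type library and a knockout library were sequenced single-end. The labels give no treatment or time for any group, all groups share 1 cell line and 1 culture medium, and each knockout group is 1 clone. The label of the single-end knockout library does not say from which clone it came.

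Matricellular proteins are secreted into the extracellular matrix, where they act on cells and on other matrix proteins more than they build the scaffold itself. Thrombospondins 1 and 2, the products of THBS1 and THBS2, are trimers that carry thrombospondin type 1 repeats, bind the receptors CD36 and CD47 and limit the growth of blood vessels, and thrombospondin 1 can also release TGF-beta from its latent complex. Thrombospondins 3 and 4 and the cartilage protein COMP are pentamers without these repeats. SPARC is a collagen-binding calcium-binding glycoprotein, SMOC1 a member of the SPARC family that limits BMP signalling, TNC (tenascin C) a large protein of remodelling matrix, and FN1 (fibronectin) a fibre-forming ligand of integrins.

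The promoter windows of THBS1, THBS2 and SPARC are shown because these 3 genes gave the set its pattern. Each runs from 250 bases before to 50 bases after the annotated start, 5′ to 3′ on the strand of the gene, as given by RefSeq on GRCh38.p14. They lie at chr15:39580829-39581128 on the plus strand (THBS1), chr6:169253797-169254096 on the minus strand (THBS2) and chr5:151686866-151687165 on the minus strand (SPARC). Capitals mark every match, on either strand, to the motifs searched.
THBS1: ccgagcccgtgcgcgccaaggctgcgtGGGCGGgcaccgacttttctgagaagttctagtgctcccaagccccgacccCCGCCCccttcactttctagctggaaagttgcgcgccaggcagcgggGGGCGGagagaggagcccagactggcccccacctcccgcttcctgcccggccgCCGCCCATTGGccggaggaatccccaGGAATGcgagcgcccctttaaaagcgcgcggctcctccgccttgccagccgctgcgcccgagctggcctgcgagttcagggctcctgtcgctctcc
THBS2: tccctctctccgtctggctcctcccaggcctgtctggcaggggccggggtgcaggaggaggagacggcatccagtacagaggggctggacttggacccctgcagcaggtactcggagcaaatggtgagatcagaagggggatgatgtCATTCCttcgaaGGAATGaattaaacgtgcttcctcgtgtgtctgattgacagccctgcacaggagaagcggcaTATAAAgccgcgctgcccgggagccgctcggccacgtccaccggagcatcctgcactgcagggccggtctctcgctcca
SPARC: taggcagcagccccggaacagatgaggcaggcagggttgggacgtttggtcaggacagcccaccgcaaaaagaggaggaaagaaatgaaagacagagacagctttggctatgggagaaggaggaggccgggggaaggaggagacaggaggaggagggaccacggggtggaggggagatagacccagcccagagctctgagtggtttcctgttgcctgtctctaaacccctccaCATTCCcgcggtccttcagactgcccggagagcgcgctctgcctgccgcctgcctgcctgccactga

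The motifs searched on both strands were the TATA box TATAAA, the GC box GGGCGG, the CCAAT box CCAAT, the AP-1 site TGANTCA, the cAMP response element TGACGTCA, the E-box CACGTG, the TEAD site GGAATG and the SMAD box GTCTAGAC. All 8 genes had at least 1 window in the table, and there were 10 windows in all. The TEAD letters GGAATG stood in all 3 printed promoters and in none of the other 7 windows: at position -46 in THBS1, at -91 and, on the opposite strand, at -103 in THBS2, and at -17 on the opposite strand in SPARC. Of all 35116 windows of the same length, 14% held these letters. THBS2 alone among the 3 had TATAAA, at -29 (11.5% of all windows), and THBS1 alone had GC boxes, 4 of them (45% of all windows), beside a CCAAT box on the opposite strand (34.6%). The THBS1 window held 29 CG pairs, that of THBS2 17 and that of SPARC 11, against a median of 14 over all windows. A match of letters is a description of the sequence only, and overlapping matches were counted separately.

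RBM4, the targeted gene, stood at 79.8, 79.7 and 78.6 CPM (counts scaled by TMM-adjusted library sizes) in wild type replicates 1 to 3, 22.3, 22.9 and 24.5 CPM in those of clone 1, and 25.3 and 25.8 CPM in those of clone 2. Its RNA was thus reduced and still measurable in every knockout library (a log2 fold change of -1.70 for the average clone, SE 0.048). The paired-end libraries held 33192095 to 55617525 counts each, the single-end wild type library 44140706 and the single-end knockout library 41265510. The column names carry sample numbers, 1 to 5 for the wild type libraries and the first replicate of each clone, and 11 to 13 for the remaining knockout libraries. Numbers 11 to 13 hold no wild type, so between those numbers and wild type a difference of library batch, if the numbers mark one, and of genotype cannot be told apart. Nothing in the labels says that replicates came from separate cultures, so errors and p-values measure the spread between these libraries. In bulk RNA, fewer cells expressing a gene and less RNA per cell cannot be told apart.

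Of the 8 genes, 6 passed the filter on low counts, and SMOC1 and TNC did not. With the average of both clones set against wild type, 4 of the 6 were higher and 2 lower at an adjusted p below 0.05 (edgeR quasi-likelihood test with Benjamini-Hochberg adjustment). Over all 20747 features tested, 9.87% were called higher and 8.09% lower in that contrast. The members were chosen on it, so their count says nothing beyond the choice. THBS4 lay at the threshold and lost its call in 12 of 17 alternative analyses.

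THBS1 (ENSG00000137801, chromosome 15, 39581079 to 39599466, plus strand, GENCODE 29 on GRCh38) was nearly silent in wild type cells and had the largest fold change of the 6 tested genes. It measured 0.736, 1.11 and 1.02 CPM in the wild type libraries, 7.76, 13.3 and 13.1 CPM in those of clone 1, and 13.3 and 19.8 CPM in those of clone 2. Every knockout library lay above every wild type library, and the ranges of the clones overlapped. The log2 fold change was 3.60 (SE 0.31) in clone 1 and 4.13 (SE 0.32) in clone 2, a 12.1-fold and a 17.5-fold difference. Within each clone, the libraries numbered 11 to 13 were higher than the library numbered 4 or 5. With the libraries numbered 1 to 5 alone, the mean log2 fold change was 3.42, against 3.86 with all. The exons of THBS1 share 448 bases with FSIP1 on the opposite strand, a gene with 21 to 53 counts per paired-end library, compared with 257 to 934 counts of THBS1 in the knockout libraries.

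SPARC (ENSG00000113140, chromosome 5, 151661096 to 151687165, minus strand) was already well expressed in wild type. Its level was 17.6, 18.3 and 19.8 CPM in the wild type libraries, 56.9, 63.5 and 59.7 CPM in those of clone 1, and 91.1 and 102 CPM in those of clone 2. None of the 3 groups overlapped with another, and clone 2 was the highest. The log2 fold change was 1.70 (SE 0.069) in clone 1 and 2.38 (SE 0.074) in clone 2, or 3.24-fold and 5.20-fold.

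THBS2 (ENSG00000186340, chromosome 6, 169215780 to 169254044, minus strand) was the most abundant thrombospondin of these cells, and its lower level in the knockout belonged to clone 2. It measured 78.0, 87.1 and 88.2 CPM in the wild type libraries, 74.9, 89.7 and 89.5 CPM in those of clone 1, and 25.8 and 29.7 CPM in those of clone 2. Clone 1 overlapped with wild type, and both clone 2 libraries lay far below all others. The log2 fold change was 0.00635 (SE 0.081) in clone 1, a sign that turned under other scalings, and -1.60 (SE 0.097) in clone 2, so the value of -0.80 (SE 0.073) for the mean of the clones describes neither. With the knockout libraries taken as 1 group it was -0.45 and not called (adjusted p = 0.596). THBS2 shares no exon bases with its antisense neighbour THBS2-AS1.

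**Figure D1:**
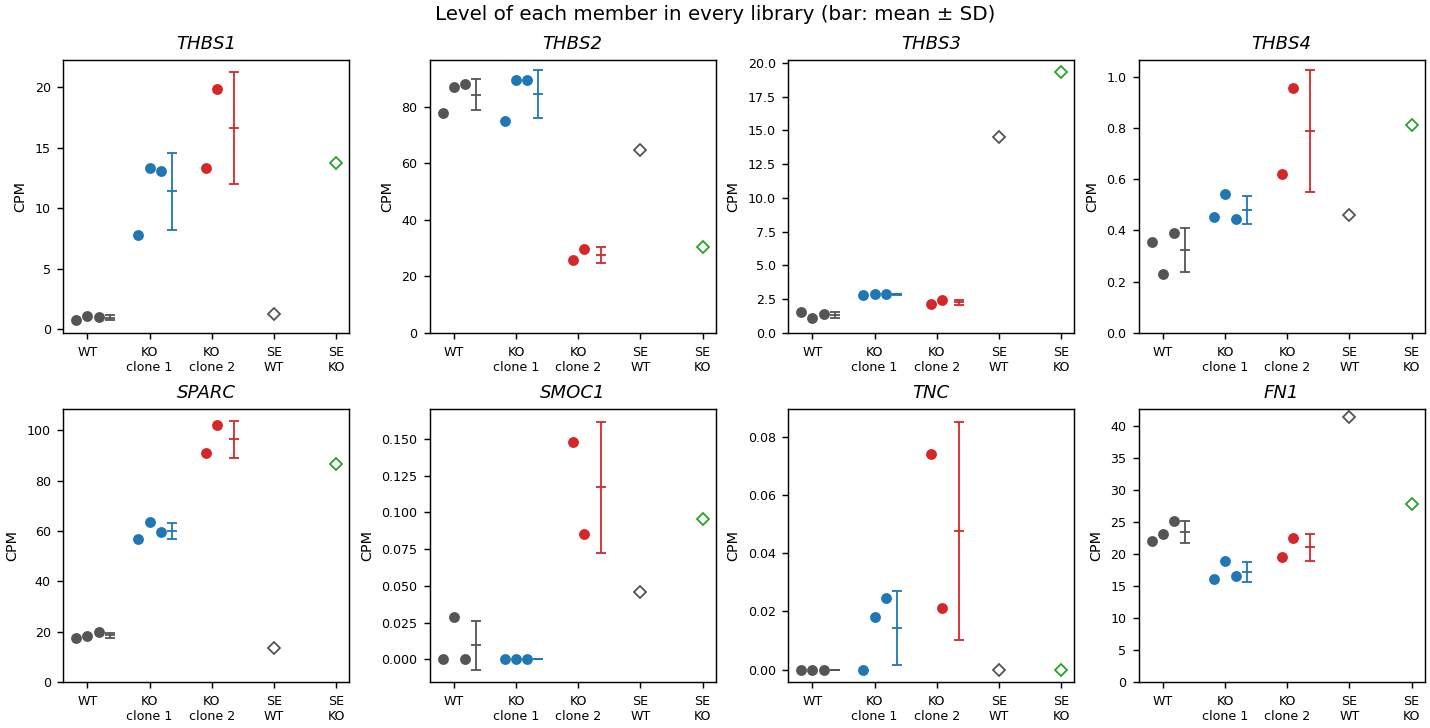
Level of each of the 8 genes (vertical axes, CPM, a linear scale of its own per gene) in wild type (WT), knockout (KO) clone 1 and clone 2 and the single-end (SE) pair. Filled points are paired-end libraries with the group's mean ± SD beside them, open diamonds are single-end libraries, which were scaled separately. THBS1 and SPARC are higher in all knockout libraries than in wild type, and THBS2 is lower only in clone 2 (25.8 and 29.7 CPM) and in the single-end knockout library (30.5 CPM).

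THBS3 and THBS4, which encode the pentameric thrombospondins, were low. THBS3 (ENSG00000169231, chromosome 1, 155195588 to 155209051, minus strand) measured 1.52, 1.08 and 1.38 CPM in the wild type libraries, 2.78, 2.85 and 2.91 CPM in those of clone 1, and 2.13 and 2.40 CPM in those of clone 2. Both clones lay above wild type, with log2 fold changes of 1.09 (SE 0.16) and 0.76 (SE 0.18). The value of clone 2 was no longer called with sample numbers 1 to 5 alone or without wild type replicate 2 or either clone 2 replicate (adjusted p up to 0.132). THBS3 values are uncertain, because 1027 bases of its exons are shared with THBS3-AS1 and 146 bases with MTX1, both on the opposite strand, and whether the counting used strand is not stated in the labels or files. THBS3-AS1 had more counts than THBS3 itself (11.1 ± 1.24 CPM in wild type, SD, n = 3) and was not called for the average clone (log2 fold change 0.16, adjusted p = 0.552).

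THBS4 (ENSG00000113296, chromosome 5, 79991311 to 80083287, plus strand) had 8 to 16 counts per wild type library. Its level was 0.356, 0.228 and 0.388 CPM in the wild type libraries, 0.453, 0.541 and 0.444 CPM in those of clone 1, and 0.619 and 0.956 CPM in those of clone 2. The groups did not overlap, with log2 fold changes of 0.56 (SE 0.33) in clone 1 and 1.27 (SE 0.34) in clone 2. FN1 (ENSG00000115414, chromosome 2, 215360440 to 215436172, minus strand) measured 22, 23.1 and 25.2 CPM in the wild type libraries, 16, 18.9 and 16.6 CPM in those of clone 1, and 19.5 and 22.5 CPM in those of clone 2. Clone 1 lay below wild type (log2 fold change -0.44, SE 0.087), and clone 2 overlapped with it (-0.16, SE 0.096).

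SMOC1 (ENSG00000198732, chromosome 14, 69854131 to 70032366, plus strand) and TNC (ENSG00000041982, chromosome 9, 115019578 to 115118257, minus strand) were at the limit of detection. SMOC1 had 0, 1 and 0 counts in the wild type libraries, none in those of clone 1, and 6 and 4 in those of clone 2. Over the libraries of each group, the 10 counts of clone 2 against the single count of wild type gave a ratio of 13.5 (exact 95% interval 1.93 to 588, counting error only). Against clone 1, taken at the limit of 3 counts over the group, the observed level in clone 2 was 4.92 times that limit. TNC had no counts in wild type, 0, 1 and 1 counts in the libraries of clone 1, and 3 and 1 in those of clone 2. Its observed level in clone 2 was 1.81 times the wild type limit, and its ratio to clone 1 was 2.95 (exact 95% interval 0.423 to 32.6). Both multiples of a limit leave out the counting error of clone 2, so they are not lower bounds.

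Taken clone by clone, 3 of the 6 tested genes were called higher and 1 lower in clone 1 (THBS1, SPARC and THBS3, and FN1), where 9.37% of all features were called higher and 6.64% lower. In clone 2, 4 were called higher and 1 lower (THBS1, THBS3, THBS4 and SPARC, and THBS2), where 6.18% of features were called higher and 4.59% lower. Clone 1 and clone 2 were set against the same wild type libraries. The members were chosen on their change in these knockout libraries, so these counts too say nothing beyond the choice. THBS4 lost its call in clone 2 in 8 of 16 alternatives.

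The clones were then compared with each other, with the knockout libraries that also entered the choice of the members. Over all features, 1.1% were called higher and 0.993% lower in clone 2 than in clone 1. THBS2 was chosen for its fall, which came from the clone 2 libraries, so its difference between the clones is a description with no test. It was 3.05-fold lower in clone 2 (a log2 difference of -1.61, SE 0.097), with 2 of 2 clone 2 libraries below all 3 of clone 1. SPARC was chosen for its rise in the same libraries, so its difference is also a description with no test. It was 1.61-fold higher in clone 2 (0.68, SE 0.071), with 2 of 2 libraries above all 3 of clone 1. Over the 16 alternatives, the log2 difference of SPARC ran from 0.598 to 0.768 and that of THBS2 from -1.72 to -1.50.

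THBS3, THBS4 and FN1 did not pass the test between the clones. THBS1 was also chosen for its rise in these libraries, so its difference between the clones is a description with no test. Its log2 difference was 0.53 (SE 0.25). It was 0.66 with the 2 blocks of sample numbers as a term and 0.652 with the replicate block. On leaving out single libraries, it was smallest without clone 2 replicate 2 (0.214) or clone 1 replicate 1 (0.329). It was largest without clone 2 replicate 1 (0.796). THBS4 differed by 0.71 (SE 0.32, adjusted p = 0.502), FN1 by 0.29 (SE 0.096, adjusted p = 0.252) and THBS3 by -0.33 (SE 0.17, adjusted p = 0.619). Values that miss the threshold do not show that the clones have the same level. RBM4 itself differed by 0.14 (SE 0.063, adjusted p = 0.523).

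The single-end pair has 1 library per group, so its values have no replicate check, and intervals cover counting error only. THBS1 had 55 counts in wild type and 576 in the knockout, or 1.27 and 13.7 CPM, a ratio of 10.9 (exact 95% interval 8.22 to 14.6). SPARC had 584 and 3639 counts, a ratio of 6.46 (5.91 to 7.06), and THBS2 had 2812 and 1278 counts, a ratio of 0.471 (0.440 to 0.503). THBS1 and SPARC thus differed in the direction that they showed in both clones, and THBS2 in the direction that it showed in clone 2. The single-end values may also have entered the choice of these genes. Among 18939 features with at least 20 counts in each library, 1.44% had a log2 ratio of at least 1 and 0.771% of -1 or less.

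FN1 had 1794 and 1165 counts in the single-end pair, a ratio of 0.673 (0.624 to 0.725). THBS3 had 628 and 811 counts, a ratio of 1.34 (1.2 to 1.49), and THBS4 20 and 34, a ratio of 1.76 whose interval included equality (0.985 to 3.23). SMOC1 had 2 and 4 counts, a ratio of 2.07 (0.297 to 22.9), and TNC had none in either library. THBS3 stood apart for its level: 14.5 CPM in the single-end wild type library was 10.8 times the paired-end wild type level, a ratio that 1.09% of 17570 genes reached. The same ratio was 0.693 for THBS3-AS1 and 1.90 for MTX1. A part of the opposite-strand genes in the THBS3 values was not tested.

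**Figure D2:**
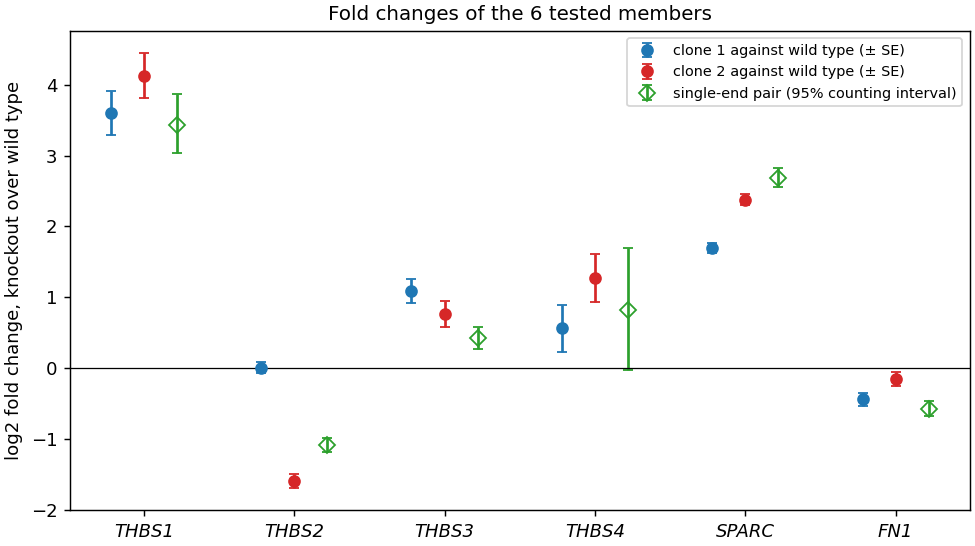
Log2 fold change of knockout over wild type (vertical axis) for the 6 tested genes in clone 1 and clone 2 (points with SE) and in the single-end pair (diamonds with exact 95% counting intervals). THBS2 lies at 0.00635 in clone 1, -1.60 in clone 2 and -1.09 in the single-end pair, while THBS1 and SPARC lie above 0 in all 3.

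Levels can be compared between genes only per length, so CPM were divided by the length of the gene's merged exons in kb. In wild type, THBS2 led with 13.2 ± 0.875 CPM per kb (SD, n = 3), followed by SPARC at 3.84 ± 0.232, FN1 at 1.35 ± 0.0961, THBS3 at 0.287 ± 0.0481, THBS1 at 0.104 ± 0.0214 and THBS4 at 0.0703 ± 0.0183. Only the ranges of THBS1 and THBS4, and of SMOC1 and TNC, overlapped. These means are of paired-end libraries. In the single-end wild type library, THBS3 (3.13 CPM per kb) came after THBS2 (10.1) and before SPARC (2.78) and FN1 (2.38). In clone 1, SPARC (12.4 ± 0.684 CPM per kb) overlapped with THBS2 (13.2 ± 1.32), and THBS1 (1.25 ± 0.345) with FN1 (0.992 ± 0.0892). In clone 2, SPARC led with 20 ± 1.56 CPM per kb (n = 2), ahead of THBS2 at 4.33 ± 0.439, THBS1 at 1.81 ± 0.502 and FN1 at 1.21 ± 0.121. Divided by the longest transcript instead, SPARC (16.2) came before THBS2 (14.6) in clone 1, and FN1 came before THBS1 in both clones (1.87 against 1.47, and 2.29 against 2.13).

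The thrombospondin family, THBS1 to THBS4 and COMP, changed its make-up as well as its total. THBS2 gave 95.5% ± 0.613 of the summed CPM per kb in wild type (SD, n = 3), 84.4% ± 1.01 in clone 1 (n = 3) and 57.6% ± 1.68 in clone 2 (n = 2). THBS1 gave 0.752% ± 0.116, 7.85% ± 1.42 and 23.8% ± 3.56, and COMP 1.17% ± 0.395, 3.15% ± 0.0152 and 9.81% ± 1.98. None of these shares overlapped between groups. The family's sum was 13.8 ± 0.909 CPM per kb in wild type, 15.7 ± 1.74 in clone 1 and 7.53 ± 0.981 in clone 2, so the total of both clone 2 libraries lay below that of the other groups. In the single-end pair, THBS3 took 22.9% of the sum in wild type and 37.5% in the knockout, and THBS2 74.0% and 42.6%. These shares rest on the values that chose the members and were not tested.

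**Figure D3:**
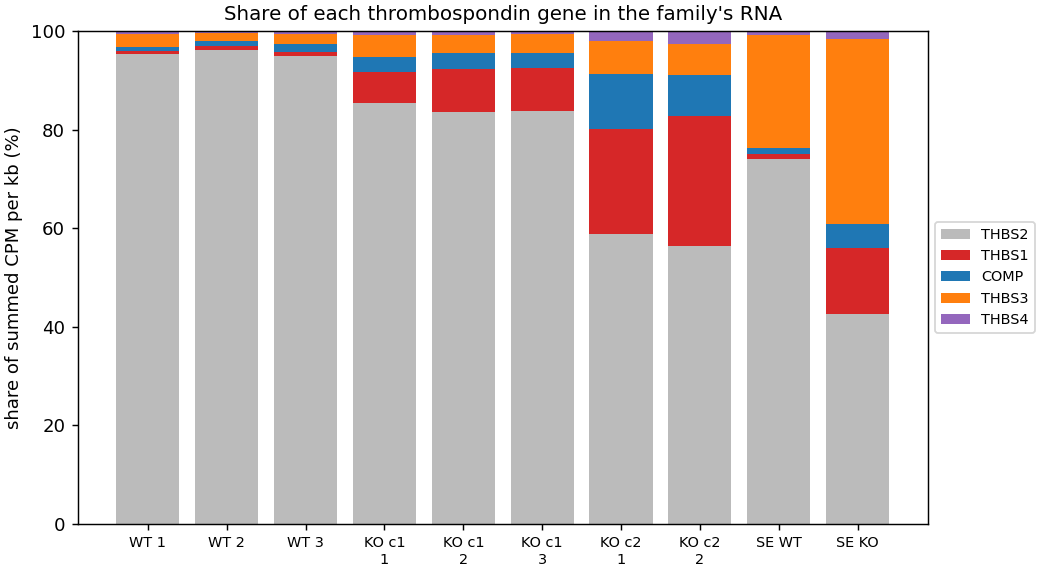
Share of each thrombospondin gene in the family's summed CPM per kb (vertical axis, percent) in each of the 10 libraries, as stacked bars (c1 and c2, clones 1 and 2). In the paired-end libraries, THBS2 makes up 95% to 96.2% of the family in wild type and 56.4% and 58.8% in clone 2, where THBS1 reaches 21.3% and 26.3%. In the single-end pair, THBS2 makes up 74.0% in wild type and 42.6% in the knockout.

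The genes nearest in pattern to THBS1, SPARC and THBS2 were sought among 14886 other genes with a mean of at least 1 CPM, by the root mean square difference of centred log2(CPM + 0.1) over the 8 paired-end libraries. Nearest to THBS1 were SLC12A3, a sodium chloride cotransporter (difference 0.478), the long non-coding RNA LINC00907 (0.525) and DIO2, which activates thyroid hormone (0.535). SLC12A3 stood at 1.95 ± 0.239 CPM in wild type, 15.6 ± 2.27 in clone 1 and 15.0 ± 6.12 in clone 2. Nearest to SPARC, and much closer to it, were PRDM16, a transcription regulator (0.118), STRA6, a receptor for retinol-binding protein, and APOBEC3C, a cytidine deaminase (0.131). PRDM16 stood at 2.69 ± 0.0313, 10.4 ± 0.769 and 16.6 ± 0.632 CPM.

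Nearest to THBS2 were ADAMTSL4 (0.151), LPAR4, a receptor for lysophosphatidic acid (0.170), and MAGI2, a scaffold protein of cell junctions (0.176). ADAMTSL4, which encodes a secreted protein with thrombospondin type 1 repeats, stood at 14.8 ± 1.51 CPM in wild type, 15.5 ± 1.33 in clone 1 and 5 ± 0.378 in clone 2. MAGI2 stood at 6.01 ± 0.14, 7.35 ± 0.279 and 1.96 ± 0.0795 CPM. The 3 genes were picked for likeness to THBS2 over these libraries, so their level in clone 2 below both other groups follows from the choice. In the single-end pair, ADAMTSL4 had 832 and 260 counts, LPAR4 55 and 19, and MAGI2 299 and 102.

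**Figure D4:**
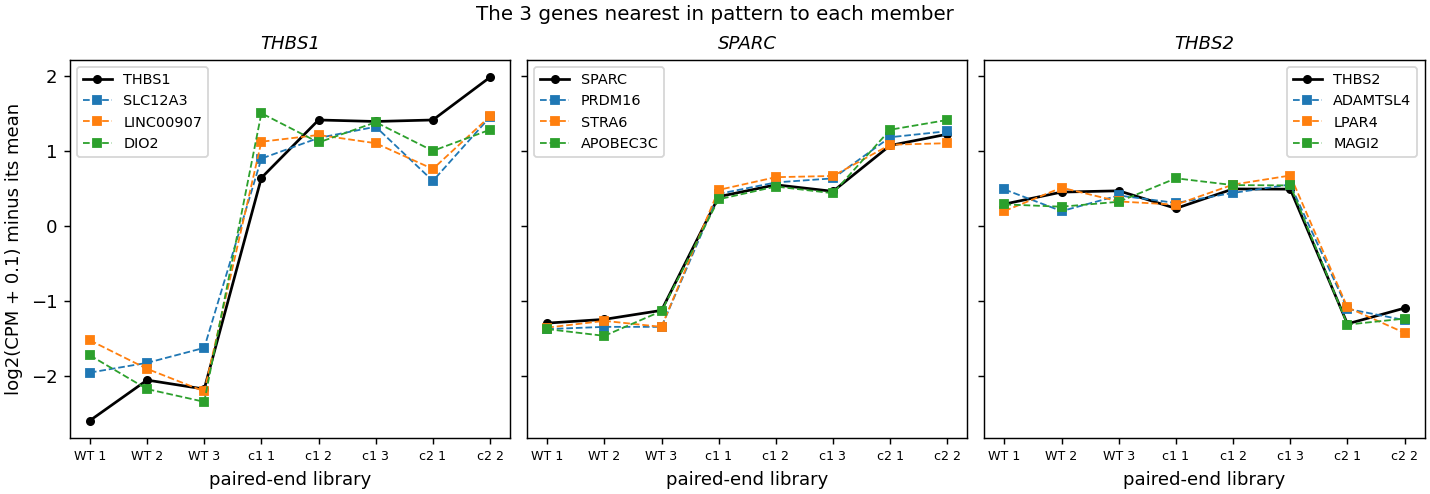
Centred log2(CPM + 0.1) of THBS1, SPARC and THBS2 (black) and of the 3 genes nearest to each (colours) in the 8 paired-end libraries (c1 and c2, clones 1 and 2). The lines of SPARC lie closest together (0.118 to 0.131), those of THBS1 farthest apart (0.478 to 0.535).

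Other genes of the same biology were taken from lists. Their called shares stand beside 9.87% higher and 8.09% lower over all features in the mean of the clones. Among 29 other matricellular genes, 14 were tested, 5 rose (35.7%) and 1 fell (7.14%), with a median log2 fold change of 0.23 against 0.00203 over all features. COMP, the fifth thrombospondin, rose from 0.504 ± 0.197 CPM (SD, n = 3) to 1.53 ± 0.177 in clone 1 (n = 3) and 2.26 ± 0.163 in clone 2 (n = 2), a log2 fold change of 1.88 (SE 0.23, adjusted p = 9.62e-05). SPOCK1, a proteoglycan of the SPARC family, rose from 0.956 ± 0.0495 to 1.53 ± 0.0811 and 5.32 ± 1.64 CPM (1.58, SE 0.18, adjusted p = 6.28e-05). It lost its call with the knockout libraries as 1 group (adjusted p = 0.136). Its relative SPOCK3 fell from 4.04 ± 0.562 to 0.295 ± 0.0882 and 0.108 ± 0.0924 CPM (-4.48, SE 0.25, adjusted p = 5e-08). SPARC-family genes thus moved in both directions.

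Of 23 genes of receptors of these proteins, 19 were tested, 4 rose and 3 fell (21.1% and 15.8%, against 9.87% and 8.09% of all features), with a median of 0.0161. CD36, the receptor of thrombospondin type 1 repeats, fell from 6.74 ± 0.418 CPM to 3.52 ± 0.508 and 2.10 ± 0.34 (-1.30, SE 0.12, adjusted p = 7.96e-06). ITGA4, an integrin subunit that binds fibronectin, fell from 44.9 ± 1.39 to 31.7 ± 1.7 and 27.3 ± 1.28 CPM (-0.61, SE 0.054, adjusted p = 5.02e-06). ITGA2B, a platelet integrin subunit, rose from 5.80 ± 0.157 to 9.48 ± 0.626 and 10.6 ± 0.64 CPM (0.79, SE 0.087, adjusted p = 3.73e-05). VLDLR, a lipoprotein receptor that binds thrombospondin 1, rose by 0.53 (SE 0.07, adjusted p = 0.00019).

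The genes of TGF-beta ligands, latency and receptors gave no common direction: 16 of 17 were tested, 4 rose and 4 fell (25% each, against 9.87% and 8.09% of all features, median -0.0743). LTBP2, named for the family of latent TGF-beta binding proteins, rose from 0.56 ± 0.216 CPM to 1.69 ± 0.179 and 1.68 ± 0.0683 (1.60, SE 0.23, adjusted p = 0.000401). LTBP1, LTBP3 and LTBP4 of the same family were not called. TGFBR3, the co-receptor betaglycan, fell from 7.04 ± 0.817 to 4.86 ± 0.00489 and 4.86 ± 0.573 CPM (-0.54, SE 0.10, adjusted p = 0.00311). FURIN, a protease that processes TGF-beta, rose by 0.30 and TGFBR2, the type II receptor, fell by 0.39 on the log2 scale. FURIN lost its call with GC correction (0.151, adjusted p = 0.0512), and TGFBR2 with the block term, without wild type replicate 3 or without clone 2 replicate 2 (adjusted p up to 0.101).

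Of 22 TGF-beta target genes, 15 were tested, 9 rose (60%, against 9.87% of all features) and none fell (against 8.09%) in the mean of the clones, with a median of 0.30. At an unadjusted p below 0.05 edgeR called 11 higher and 0 lower, and DESeq2 called 9 higher and 0 lower after adjustment. TAGLN, a smooth muscle actin-binding protein, rose from 2.25 ± 0.0371 CPM to 4.11 ± 0.477 and 4.37 ± 0.402 (0.92, SE 0.12, adjusted p = 0.00023), and ID1, an inhibitor of helix-loop-helix factors and a BMP target, by 0.41 (SE 0.058, adjusted p = 0.00031). LTBP2 belongs to this list too. In the single-end pair, which has no replicates, the knockout to wild type ratio was 1.27 for TAGLN (exact interval 0.995 to 1.62) and 1.29 for LTBP2 (0.986 to 1.69). It was 1.01 for SMAD7 (0.885 to 1.14), 1.03 for ID3 (0.989 to 1.06) and 1.1 for BAMBI (0.949 to 1.28). All these intervals included equality. The intervals of the other called genes, SMAD6 (ratio 1.35), ID2 (1.21), TGIF1 (1.16) and ID1 (1.12), lay above it.

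Of 30 other genes with thrombospondin type 1 repeats, 17 were tested, 4 rose and 4 fell (23.5% each, against 9.87% and 8.09% of all features, median 0.0776). THSD7A rose from 8.51 ± 0.638 CPM to 18.3 ± 1.25 and 16.6 ± 1.04 (1.04, SE 0.082, adjusted p = 1.62e-06), and ADGRB1, an adhesion receptor, from 16.8 ± 1.46 to 34.0 ± 4.79 and 27.8 ± 2.62 (0.87, SE 0.095, adjusted p = 6.88e-05). Its relative ADGRB3 fell by 0.68 (SE 0.13, adjusted p = 0.00307). ADAMTSL4 was called in the mean of the clones (-0.75, SE 0.089, adjusted p = 7.17e-05) and not with the knockout libraries as 1 group (adjusted p = 0.644). Of 11 genes that glycosylate such repeats or fold secreted proteins, all were tested, none rose and 3 fell (27.3%, median -0.0832). At an unadjusted p below 0.05 edgeR called 1 higher, and DESeq2 called 0 higher after adjustment. DPY19L3, a C-mannosyltransferase, fell by 0.31 (SE 0.054, adjusted p = 0.00166), and by 0.186 with GC correction (adjusted p = 0.00654). DPY19L4 fell by 0.23, a call lost with GC correction (adjusted p = 0.351) and on leaving out wild type replicate 1, wild type replicate 2 or clone 2 replicate 1. DPY19L genes resemble each other, so reads may be split between copies. In the single-end pair, the ratio was 3.26 for THSD7A (exact interval 2.8 to 3.8), 1.22 for ADGRB1 (1.11 to 1.34) and 0.546 for ADGRB3 (0.444 to 0.668). For DPY19L3 it was 0.957, with an interval that included equality (0.899 to 1.02). For DPY19L4 it was 1.12 (1.04 to 1.21), the direction opposite to its fall in the clones.

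Between the clones, few genes of these lists were called, beside 1.1% of all features higher and 0.993% lower. SPOCK1 was higher in clone 2 (log2 difference 1.80, SE 0.19, adjusted p = 7.94e-05), and ADAMTSL4 (-1.64, SE 0.12, adjusted p = 1.65e-06) and CD36 (-0.75, SE 0.17, adjusted p = 0.0309) were lower. ADAMTSL4 was also among the genes nearest in pattern to THBS2, a likeness measured over the same libraries. The call of CD36 was lost in 7 of 16 alternatives, among them those that left out wild type replicate 1, clone 1 replicate 2, clone 1 replicate 3 or either library of clone 2 (adjusted p up to 0.341). In all, 1 other matricellular gene was higher and none lower, 2 receptor genes were lower, and 1 gene each of the list of TGF-beta ligands, latency and receptors and of the type 1 repeat list was lower. None of the TGF-beta targets was called in either direction by edgeR or by DESeq2, and at an unadjusted p below 0.05 edgeR called 2 of them lower. None of the glycosylation and folding genes was called by either tool or at an unadjusted p below 0.05.

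**Figure D5:**
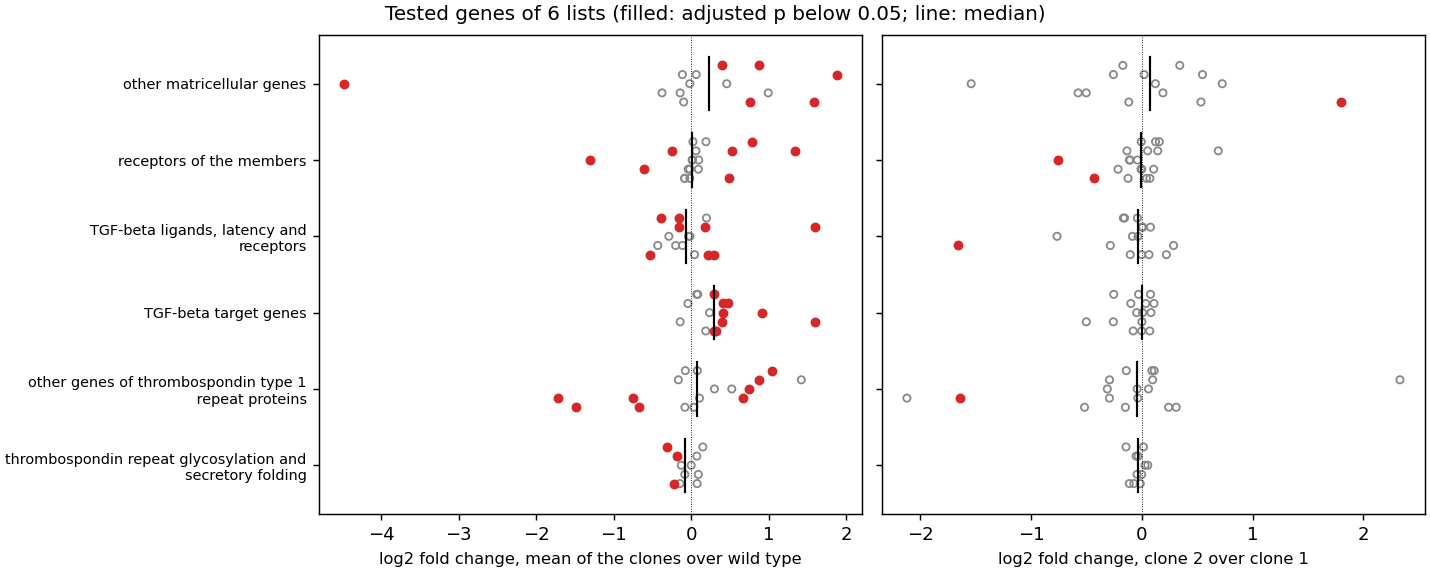
Log2 fold change of every tested gene of 6 lists (horizontal axes) in the mean of the clones over wild type (left) and in clone 2 over clone 1 (right). Filled points have an adjusted p below 0.05 and black lines are list medians. All 9 called TGF-beta target genes lie right of 0 in the left panel, and none is called in the right panel.

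Markers of cell types that make or bind these proteins were read beside the results. Of 13 haematopoietic markers, 12 lay below 1 CPM in every paired-end library, and MPO, GATA1 and HBG1 had no counts there. The exception was the stem cell factor receptor KIT, which set the list's sum at 12.5 to 14.2 CPM in wild type, 7.72 to 8.88 in clone 1 and 6.28 to 6.35 in clone 2. Of 9 fibroblast markers, 7 lay below 1 CPM in every paired-end library, and COL1A2, DCN and LUM had no counts there. Their sum was 13.5 to 14.4, 19.4 to 23.8 and 26.3 to 26.9 CPM, nearly all of it COL1A1, which rose from 13.4 ± 0.423 to 19.7 ± 2.14 and 26.3 ± 0.359 CPM (log2 fold change 0.76, adjusted p = 1.28e-05).

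Among 7 platelet markers, ITGA2B alone reached 1 CPM in a paired-end library, and PF4, PPBP, GP9 and TREML1 had no counts there. In the single-end pair GP1BA, a platelet glycoprotein, had 300 counts in wild type and 360 in the knockout (6.91 and 8.59 CPM), and TREML1 had 1 count in the knockout. Over all paired-end libraries of a group, GP1BA had only 5 counts in wild type, 0 in clone 1 and 1 in clone 2. Its single-end values are thus uncertain, and the cause of the gap was not tested. The paired-end sum of the platelet list was 5.72 to 6.05 CPM in wild type, 8.97 to 10.4 in clone 1 and 10.3 to 11.2 in clone 2. All 8 endothelial markers stayed below 1 CPM, with a sum of at most 0.419 CPM in any paired-end library and no counts of CDH5 and ERG in those libraries. The part of these markers in the results was not tested.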

How the data were processed

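RNA of HAP1 cells was sequenced in 8 paired-end and 2 single-end libraries. The deposited tables give raw counts, whole numbers for each gene and repeat subfamily with no normalization, as their values show. The submitters' processing notes name STAR 2.5.2a and the builds hg38 and GRCh38, and the tables' names give TEToolkit as the counter. The labels and files do not state its strand setting. Spike-ins were not used.

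Counts were filtered with filterByExpr, scaled with TMM factors and tested with edgeR 4.0.16 (quasi-likelihood F test, robust, a mean for each group, all 8 paired-end libraries in 1 fit), under R 4.3.3 with limma 3.58.1 and DESeq2 1.42.0 as an alternative. P-values were adjusted over all 20747 features (genes and repeats) and called below 0.05. SEs, which are approximate, are absolute log2 fold changes over the square root of F. The code was tested on simulated data. Exact intervals are binomial (95%), and a count of 0 was given a limit of 3 counts.

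Members, lists, tests and alternatives were chosen with earlier results of these data known. Named genes are the 8 members, RBM4, up to 2 called genes per list and direction by p-value, and the 3 genes nearest in pattern to THBS1, SPARC and THBS2. NRROS, CACNA2D1 and THY1 were added after their values were seen. Gene places come from GENCODE 29. No 2 libraries were copies: replicate pairs had a chi-square of 4.22 to 20.01 for each degree of freedom.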

Additional observations from a re-analysis of the deposited data

Results flagged for a closer look

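For members and list genes named above, the knockout effects of the 2 clones were compared by the test of their difference (clone 2 against clone 1, edgeR with Benjamini-Hochberg adjustment over all features). THBS2, whose fall chose it, had a log2 difference of -1.61, with a level near wild type in clone 1 and far below it in clone 2. SPARC, whose rise chose it, had a log2 difference of 0.683, with the larger rise in clone 2. The values of these 2 members are a description with no test. The log2 difference was 1.80 for SPOCK1 (adjusted p = 7.94e-05), -0.752 for CD36 (adjusted p = 0.0309) and -1.64 for ADAMTSL4 (adjusted p = 1.65e-06). Among the marker genes it was -0.474 for KIT (adjusted p = 0.0387) and 0.413 for COL1A1 (adjusted p = 0.0247). The calls of SPOCK1 and ADAMTSL4 were made in all 16 alternatives. That of CD36 was lost in 7 (adjusted p up to 0.341). KIT lost its call in 8 (adjusted p up to 0.265): with the replicate block, with sample numbers 1 to 5 only, and on leaving out replicate 1 or replicate 2 of any of the 3 groups. COL1A1 lost its call in 4 (adjusted p up to 0.148), on leaving out replicate 1 or replicate 2 of either clone.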

How the results depend on the processing

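The direction of THBS1 and SPARC in the mean of the clones, and their calls, held in all 17 alternatives (log2 fold change 3.42 to 3.98 and 1.95 to 2.08), and THBS2 was called lower in clone 2 in all 16. These genes were chosen by their change in these libraries, so their calls describe the effect of the processing and say nothing beyond the choice. THBS2 in clone 1, not called in any of the 16, changed sign: -0.00273 with DESeq2 size factors, -0.00864 with TMM from genes only, -0.159 with the sample-number term, -0.0664 with GC correction, -0.172 with sample numbers 1 to 5 only, -0.00185 with DESeq2, and -0.0591 to 0.0743 without single replicates. The labels do not say that replicate numbers pair the libraries. Correlations were taken between deviations of log2 CPM from the group mean, and not between levels. Same-numbered wild type and clone 1 libraries then correlated at -0.0603, -0.0837 and -0.342, and wild type and clone 2 at -0.0433 and 0.102. Differently numbered wild type and clone 1 libraries ran from -0.262 to 0.324. Same-numbered libraries of the clones correlated at 0.465 and 0.412. The deviations of the 2 clone 2 libraries mirror each other, so swapping these libraries only turns the sign (-0.465 and -0.412). The first replicate of each clone is also the one with a sample number of 1 to 5, so between the clones a pairing by number and by sample-number block cannot be told apart. With the replicate block, 4248 features were called in the mean of the clones (3725 without), 3716 in clone 1, 2526 in clone 2 and 431 between the clones. Between the clones THBS1 gained a call with this block (0.652) and with the sample-number term (0.66), and the cause was not tested. THBS1 was chosen for its rise in these libraries, so its values between the clones are a description with no test. THBS4 lost its call with the block in the mean of the clones (adjusted p = 0.0712) and in clone 2 (0.0546), and without any single wild type replicate. FN1 lost its call in the mean of the clones without wild type replicate 3 (adjusted p = 0.093) or clone 2 replicate 1 (0.062). Between the clones, 434 calls became 688 without the low count filter (more features tested) and 224 with sample numbers 1 to 5 only (fewer libraries). Without single replicates, calls ran from 1847 to 4251 in the mean of the clones, 1605 to 3229 in clone 1, 1033 to 2748 in clone 2 and 224 to 418 between the clones. Counts fell by over 1.5 times without wild type replicate 1 (all contrasts with wild type), 2 (mean and clone 1) or 3 (mean), and without either clone 2 replicate (clone 2 and between the clones). Called genes per list in the mean of the clones moved from 6 to 3 for other matricellular genes (knockout libraries as 1 group), from 8 to between 3 and 9 for TGF-beta ligands, latency and receptors, and from 3 to between 1 and 4 for glycosylation and folding. Between the clones, lists had 0 to 3 calls in every alternative. With sample numbers 1 to 5 only, the spread comes from wild type alone, and each lone clone library is assumed to vary like it. SMOC1 and TNC had at most 6 counts in any paired-end library, and THBS4 had 8 to 16 in each wild type library, so the counting error of these values is wide.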

Other observations

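Beyond the genes named above, 3 list genes, chosen after their values were seen, also differed between the clones. NRROS, which anchors latent TGF-beta at the cell surface, stood at 3.85 ± 0.618 CPM in wild type (SD, n = 3), at 5.98 ± 0.29 in the 3 libraries of clone 1 and at 1.89 ± 0.156 in the 2 of clone 2. It was called higher in clone 1 (log2 fold change 0.63, edgeR adjusted p = 0.00611) and lower in clone 2 (-1.03, adjusted p = 0.00108), so the mean of the clones, -0.20, was not called (adjusted p = 0.303). Its difference between the clones was -1.66 (adjusted p = 3.38e-05) and was called in all 16 alternatives (adjusted p at most 0.00467). In the single-end pair NRROS had 218 counts in wild type and 102 in the knockout.

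THY1, a surface glycoprotein used as a fibroblast marker, stood at 0.341 ± 0.0852 CPM in wild type, 1.14 ± 0.402 in clone 1 and 0.163 ± 0.0499 in clone 2. It was called higher in clone 1 (log2 fold change 1.69, adjusted p = 0.00534) and not called in clone 2 (-1.09, adjusted p = 0.224), with a log2 difference of -2.77 between the clones (adjusted p = 0.00333). Its call was lost with sample numbers 1 to 5 only and without clone 2 replicate 2 (adjusted p up to 0.056). CACNA2D1, a calcium channel subunit and thrombospondin receptor, was at 25.8 ± 0.86, 29.6 ± 2.26 and 22 ± 1.87 CPM, a log2 difference of -0.43 (adjusted p = 0.0122), and lost its call in 3 of 16 alternatives, among them without clone 1 replicate 2 or clone 2 replicate 1 (adjusted p up to 0.197).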
